A study of Drosophila melanogaster with 2 samples.

Results

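Dense clusters of peaks are stretches of the fly genome where sites of GFP-tagged Dif lay close together. They were drawn from the deposited list of optimal IDR thresholded peaks, called the IDR list here (IDR, irreproducible discovery rate). IDR compares the ranks of sites between lists, but single peaks of the list can still rank far apart in the replicates. Summits were sorted along each chromosome arm, neighbours at most 5000 bp apart were chained, and all peaks of chains with 5 or more summits were kept. This gave 90 clusters with 581 peaks, or 13.9% of the 4175 peaks of the list. The members were thus chosen by the measured positions of their summits, so peak density, signal and replicate support are described and not tested.

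The data come from chromatin immunoprecipitation and sequencing (ChIP-seq) with an antibody against GFP. The material was whole wandering larvae of the third instar, from a Dif-GFP line of Drosophila melanogaster in which an insertion targeting Dif supplies the protein with GFP at its C terminus. Both sexes were pooled, and the age is given as unknown. There was 1 group with 2 biological replicates, numbered 3 and 4 in the labels, and no other genotype, treatment or stage. The size range in the labels reaches higher for replicate 4 than for replicate 3, and its part in differences between them was not tested. Whole animals mix all larval tissues, so a peak cannot be assigned to a cell type, and marker genes of a tissue cannot be read as levels in peak lists. The control that the labels name was not analysed here, and the lists give no read counts, so the depth of the libraries is unknown.

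Dif is a transcription factor of the NF-κB family that enters the nucleus when the Toll receptor is activated, and it drives immune genes in the fat body. NF-κB proteins bind κB sites, short sequences with a run of G at one end and of C at the other. GAGA factor, the product of Trl, binds GA repeats and keeps promoters and enhancers of developmental genes open. Long regulatory genes of flies often hold many enhancers, most of them in introns or in upstream sequence.

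The sequences at clustered summits show what the windows share and what they lack. The first lines give 121 bases centred on a summit in each of 6 clusters, the strongest whose window overlaps no annotated exon, named by their host genes, with matches of GAGAGAG or its complement CTCTCTC in capitals. They are shown because GA repeats were the most frequent motif at clustered summits. The windows of trx and Dif held none, although the strongest summits of these clusters did (signals of 574 at trx and 643 at Dif). They are the plus strand of dm6, read from the RefSeq Release 6 assembly.
tara, chr3R:16242555-16242675: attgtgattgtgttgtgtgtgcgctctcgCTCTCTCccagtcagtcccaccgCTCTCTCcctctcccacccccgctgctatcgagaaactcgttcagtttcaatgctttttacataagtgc
CHES-1-like, chrX:7696765-7696885: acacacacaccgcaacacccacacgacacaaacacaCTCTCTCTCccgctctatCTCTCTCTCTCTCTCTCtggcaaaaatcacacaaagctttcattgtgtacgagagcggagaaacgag
Eip74EF, chr3L:17563782-17563902: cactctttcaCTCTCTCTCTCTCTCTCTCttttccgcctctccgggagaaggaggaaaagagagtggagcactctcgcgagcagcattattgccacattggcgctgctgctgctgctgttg
Trl, chr3L:14756479-14756599: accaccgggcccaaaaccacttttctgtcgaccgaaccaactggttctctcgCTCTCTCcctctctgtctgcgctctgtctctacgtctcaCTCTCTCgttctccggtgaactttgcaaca
trx, chr3R:14283413-14283533: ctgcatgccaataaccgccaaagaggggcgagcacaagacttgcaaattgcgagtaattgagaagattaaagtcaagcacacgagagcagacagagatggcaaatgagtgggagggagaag
Dif, chr2L:17431078-17431198: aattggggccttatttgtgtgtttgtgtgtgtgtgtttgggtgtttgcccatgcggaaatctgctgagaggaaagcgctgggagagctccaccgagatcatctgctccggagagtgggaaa

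The next pair comes from the midpoints between a summit of those windows and a neighbouring summit of the same cluster, at gaps of 2880 bp in Eip74EF and 1198 bp in Trl. They are shown to set a summit beside the sequence that separates it from the next one, and neither holds a match.
Eip74EF midpoint, chr3L:17565222-17565342: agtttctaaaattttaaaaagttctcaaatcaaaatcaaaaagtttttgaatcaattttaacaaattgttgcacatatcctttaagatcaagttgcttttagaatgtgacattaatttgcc
Trl midpoint, chr3L:14755880-14756000: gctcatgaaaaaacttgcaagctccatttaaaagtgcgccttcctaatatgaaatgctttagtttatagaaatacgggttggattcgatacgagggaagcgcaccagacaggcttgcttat

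Chains of 5 or more summits were the tail of a steep distribution. Of all chains, 1687 were single peaks, 504 had 2 summits, 177 had 3 and 92 had 4, and these were left out. Among the clusters, 38 had exactly 5 summits, 25 had 6, 8 had 7, and 19 had 8 or more. The number of summits in a cluster ran to 16. At the border of the rule, the strongest chains of 4 lay at skd (summed signal 1513) and MsrA (1417), while the strongest chains of 5 lay at Bacc (2245) and Dif (1444). The widest gap inside a cluster was 4951 bp, at E2f1, and the nearest summits left out lay 5058 bp from the ovo cluster (signal 124) and 5133 bp from the Xrp1 cluster (signal 114).

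**Figure D1:**
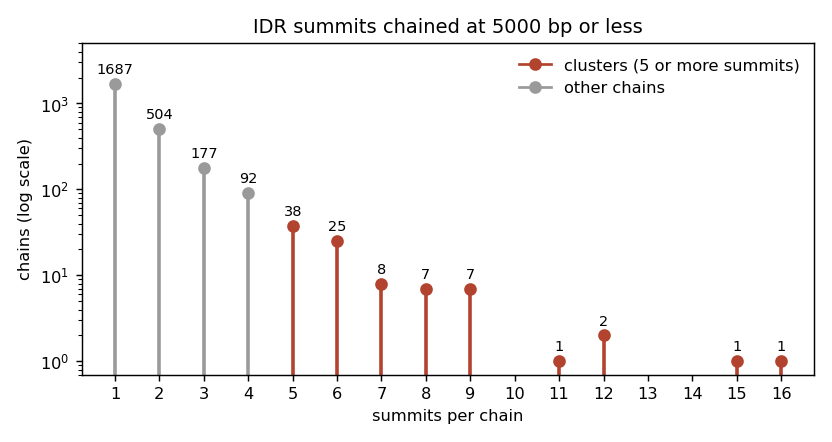
Number of chains (log axis) by the number of IDR summits they hold. Red marks the 90 clusters of 5 or more summits, and grey marks the chains of 1 to 4, of which 92 had 4 summits.

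The rule allows no gap over 5000 bp, so the clusters were compact by choice. The first and last summit of a cluster lay 2012 to 25528 bp apart, with a median span of 7910 bp. Neighbouring summits of a cluster lay a median of 1105 bp apart, with quartiles of 662 and 2335 bp, and 45.4% of the 491 gaps were under 1000 bp. The smallest gap was 202 bp, against 199 bp in the whole list. All spans together covered 805 kb, or 0.601% of the length of the 6 arms with peaks. They held 995 of the 30000 peaks of the pooled relaxed list (3.32%). These include the 581 clustered peaks that set the spans, so the 2 shares are not a measure of concentration.

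Clusters lay on every arm that had IDR peaks. Arm 3R had 23 of them, 2L had 20, 2R had 18, 3L had 16, X had 12 and the small arm 4 had 1. The share of an arm's IDR peaks that were clustered was 16.6% on 2L (Wilson 95% interval 14.2% to 19.5%), 14.8% on X (12.2% to 17.8%), 14.2% on 3R (12.2% to 16.4%), 13.4% on 2R (11.3% to 15.9%) and 10.7% on 3L (8.85% to 13.0%). The 2L interval lay above that of 3L, and all other pairs among these 5 arms overlapped. Arm 4 held 12 IDR peaks, and 5 of them formed the cluster at zfh2, which encodes a zinc-finger homeodomain protein. Its interval, from 19.3% to 68.0%, is too wide for a comparison. These intervals cover counting error only, and neighbouring peaks are not independent.

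The host of a cluster is the protein-coding gene whose body held the most of its summits, or the gene with the nearest TSS where no body did. The top of the order was tara, which encodes a nuclear protein related to the trithorax group, with 16 summits over 21479 bp of arm 3R (16232643 to 16254122). Smr, a corepressor that binds the ecdysone receptor, had 15 over 21217 bp of X, of which 5 lay in the gene itself and others in the long noncoding RNA gene lncRNA:Vinr and at CG4004. CHES-1-like, a forkhead factor, had 12 over 19191 bp of X, and lola, a zinc-finger factor of axon guidance, had 12 over 25528 bp of 2R, the longest span. The lola cluster ran on to psq, whose protein also binds GA repeats.

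At tara, all 16 summits lay in the gene, 15 of them in introns more than 500 bp from a TSS. Their signal ran from 87.0 to 330, and the strongest, at 16242615, lay 201 bp from a TSS and ranked 865 in replicate 3 and 105 in replicate 4. The strongest summit at CHES-1-like, with a signal of 829, ranked 47 in replicate 3 and 71 in replicate 4, and 8 of its 12 summits held a GAGA match. The strongest at lola, with 755, ranked 76 in replicate 3 and 39 in replicate 4, and 10 of its 12 summits held one.

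COX7AL2, named for a cytochrome c oxidase subunit, was the host of 4 of 11 summits on 2L, and 5 of the others were intergenic. Clusters of 9 lay at Eip74EF, an ETS factor induced by ecdysone; trx, a histone methyltransferase; Dad, which inhibits Dpp signalling; vri, a bZIP factor of the circadian clock; and Ppa, an F-box protein. The other clusters of 9 were named for Alp13 and CG17746, but the Alp13 gene held no summit of its cluster and CG17746 held 1. Among the clusters of 8 with the highest summed signal were ush, a cofactor of GATA factors; Tlk, a chromatin kinase with 2 such clusters; and Syp, an RNA-binding protein. The first Tlk cluster belongs with these by its summed signal of 1857, and the second had 1656.

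The Eip74EF cluster spanned 16009 bp of 3L. Its 9 summits had signals from 90 to 551, and 8 lay in introns away from a TSS. The strongest, at 17563842, ranked 289 in replicate 3 and 40 in replicate 4, and the next, at 17577920 with 515, ranked 228 and 69 in the same replicates. At trx, signals ran from 106 to 574 over 13300 bp, and the last summit lay at the TSS of the neighbour red. The strongest trx summit ranked 150 in replicate 3 and 73 in replicate 4.

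**Figure D2:**
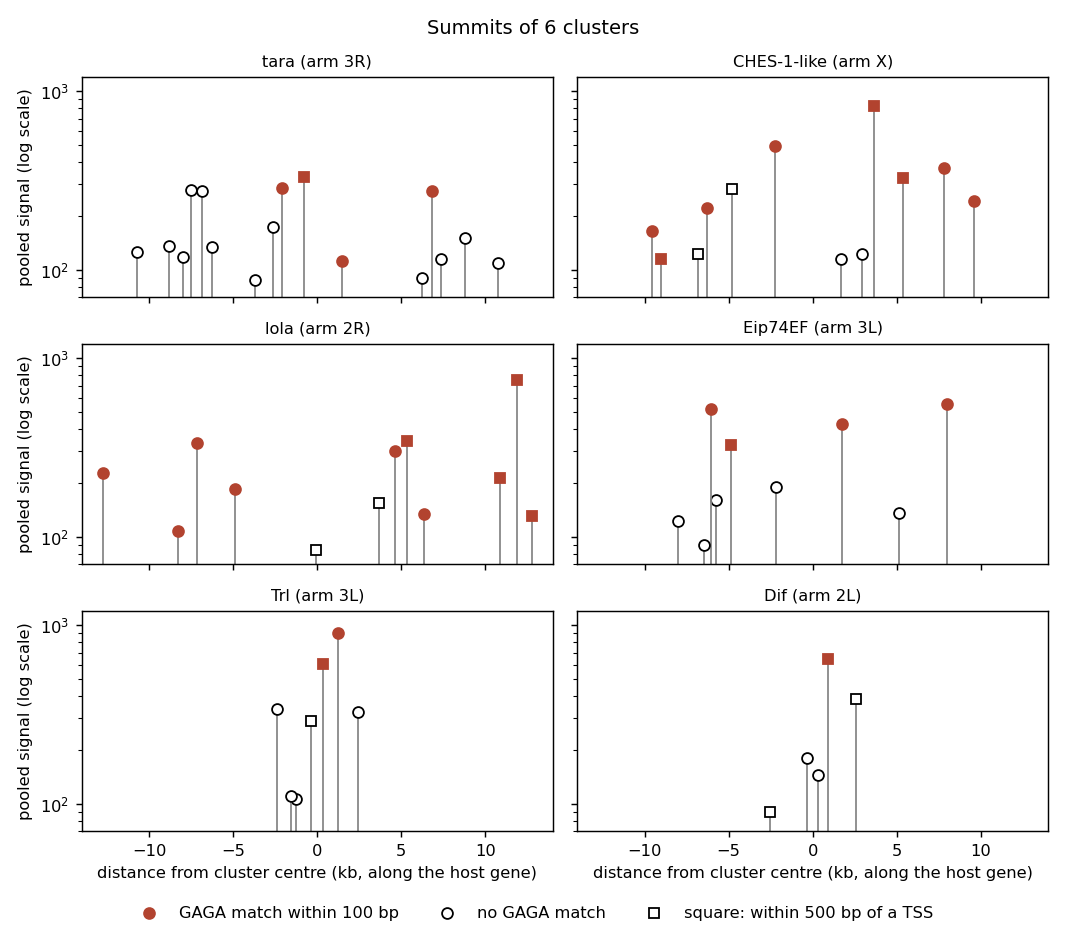
Summits of 6 clusters by distance from the cluster centre (kb, in the direction of the host gene) and pooled signal (log axis). Filled symbols have a GAGA match within 100 bp of the summit and squares lie within 500 bp of a TSS. The tara cluster has 16 summits with signals up to 330, while Trl has 7 within 4816 bp with signals up to 901.

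By mean signal the order was Bacc (449), Trl (382), COX7AL2 (324), atos (305) and Rab11 (296). At Bacc on 2L, 5 summits had signals of 148, 154, 1026, 321 and 596 along the arm. The peak of 1026 lay 79 bp from the Bacc TSS and ranked 21 in replicate 3 and 66 in replicate 4. The Rab11 cluster, at the gene of a recycling-endosome GTPase, owed its mean to 1 peak of 1147 at the TSS of rtet, the strongest of all clustered peaks. That peak ranked 18 in replicate 3 and 29 in replicate 4, whereas the other 5 had signals of 98.5 to 142.

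Trl, the gene of GAGA factor itself, had 7 summits within 4816 bp of 3L (14755341 to 14760157). Their signals along the arm were 325, 901, 603, 290, 106, 110 and 338. All 7 had a summit in both replicates. The peak of 901 ranked 27 in replicate 3 and 33 in replicate 4 and lay in an intron 797 bp from a TSS, and the peak of 603 ranked 89 and 281 in these replicates and had 7 GAGA matches. These 2 held GA repeats, and the other 5 held none.

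The closest spacing was at crol, a zinc-finger gene induced by ecdysone, where 5 summits lay a mean of 503 bp apart. Next came ced-6, which encodes an adaptor for the engulfment of dying cells, at 561 bp, and CG46304 at 719 bp. The remaining strongest clustered peaks lay at ush (1015), at the Alp13 cluster (690), at the Dif cluster (643) and at the TSS of CG4004 in the Smr cluster (642). The ush peak, in a 5′ UTR 71 bp from a TSS, had 13 GAGA matches and ranked 29 in replicate 3 and 21 in replicate 4.

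The median signal of clustered peaks was 145 (quartiles 107 and 235), against 133 (102 and 199) in the other 3594 IDR peaks, a ratio of 1.09. The ratio was 1.11 for the matched peaks of replicate 3 and 1.14 for those of replicate 4. Clusters held 9 of the 100 strongest IDR peaks (9%), 95 of the 500 strongest (19%) and 172 of the 1000 strongest (17.2%), beside 13.9% of all. The 1000 strongest took in 29.6% of clustered peaks (26% to 33.4%), against 23% of the others (21.7% to 24.4%). Clustered peaks held 14.4% of the summed signal with 13.9% of the peaks. Within a cluster the strongest peak had a median of 3.36 times the signal of the weakest, and the range over clusters was 1.56 to 11.6.

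Single clustered peaks were found again in both replicates about as often as other peaks. A summit of both relaxed lists lay within 100 bp of 83.6% of clustered peaks (interval 80.4% to 86.4%), against 85.7% of the others (84.5% to 86.8%) and 85.4% of the whole list. Replicate 3 held 97.1% of them and replicate 4 held 86.4%. Over the 486 clustered peaks matched in both, signal was correlated between replicates with rho = 0.51 by Spearman and r = 0.50 by Pearson on log2 values. For the other peaks rho was 0.48 and r was 0.56. These describe peaks of 1 pair of libraries, and both lists derive from 1 common further file, per the deposited listings.

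With only the 4175 strongest peaks of each replicate, a summit of both lay within 100 bp of 58.2% of clustered peaks (54.1% to 62.1%), against 53.8% of the others (52.2% to 55.5%). When the rule was applied to the 4175 strongest peaks of each replicate alone, replicate 3 gave 88 clusters and replicate 4 gave 93. Of the 90 IDR clusters, 65 overlapped a cluster of replicate 3, 54 a cluster of replicate 4 and 41 one of each. Of the replicate's own clusters, 65 of 88 in replicate 3 and 55 of 93 in replicate 4 overlapped an IDR cluster. The 12 that overlapped neither were those at grh, beat-Ib, REPTOR, Treh, Gdap2, cic, CG13631, ovo, heph, Gug, CheA75a and sbb. All but 1 of these 12 had 5 or 6 summits, and grh had 7.

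Of the 19 clusters with 8 or more summits, all 19 overlapped a cluster of replicate 3 and 16 a cluster of replicate 4. The 3 that did not were CHES-1-like, the second Tlk cluster and Tis11. Counted over spans widened by 100 bp at each end, tara held 14 of the strongest summits of replicate 3 and 15 of replicate 4, Smr held 15 and 12 in this order, and lola 11 and 11. Other spans differed, and the following were singled out after their values were seen. The Rab11 span held 5 in replicate 3 and 1 in replicate 4, ced-6 held 4 and 1, and Kr-h1, a zinc-finger factor of the juvenile hormone response, held 3 and 9.

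**Figure D3:**
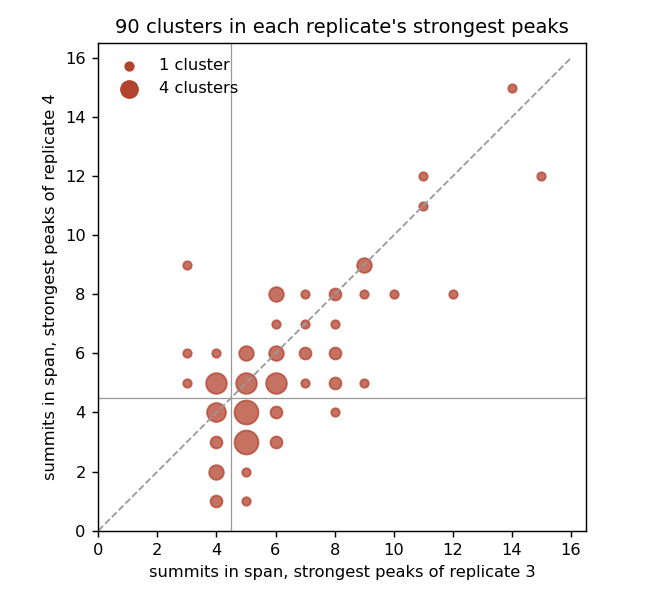
Summits within each of the 90 cluster spans (widened by 100 bp at each end) among the 4175 strongest peaks of replicate 3 (horizontal axis) and replicate 4 (vertical axis). Symbol area gives the number of clusters, the thin lines separate 4 from 5 summits, and the dashed line marks equal numbers. The 3 rightmost points are Smr (15 and 12), tara (14 and 15) and CHES-1-like (12 and 8).

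Clustered summits lay in introns more often than other IDR summits. Introns beyond 500 bp of any TSS held 280 of 581 clustered summits (48.2%, interval 44.2% to 52.3%), against 23.8% of the others (22.5% to 25.2%) and 27.2% of the whole list. Within 500 bp of a TSS lay 217 (37.3%, 33.5% to 41.4%), against 62.6% of the others (61.0% to 64.2%) and 59.1% of the whole list. The intervals of clustered and other peaks did not overlap in either class. Intergenic sequence held 8.61% of clustered and 9.10% of other summits, and 9.03% of the whole list, with overlapping intervals. Coding sequence beyond 500 bp of a TSS held 0 of 581 clustered summits, with an upper Wilson limit of 0.657%, and 0.779% of the others. Nearer to a TSS, 1 clustered summit, at wech, lay in coding sequence. The median distance to a TSS was 913 bp in clusters and 197 bp elsewhere. These differences are given as intervals without a test, since peaks of a cluster are neighbours.

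**Figure D4:**
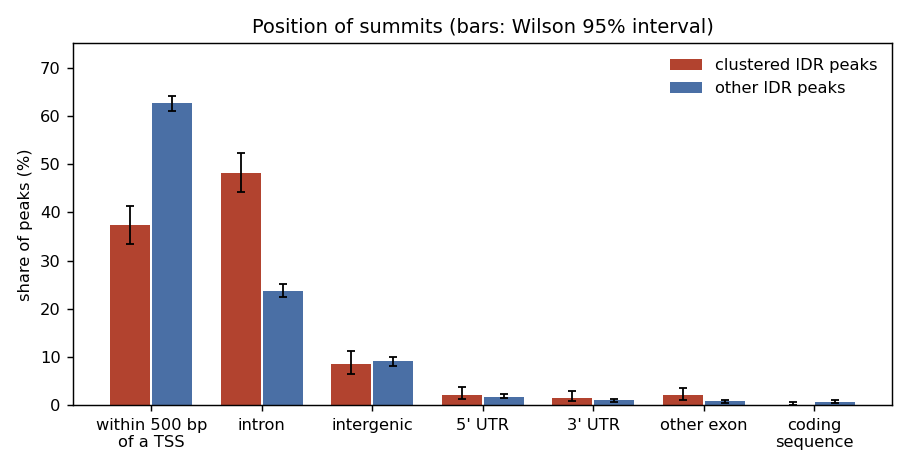
Share of summits (%) by position, for the 581 clustered peaks (red, left) and the 3594 other IDR peaks (blue, right), with Wilson 95% intervals. All classes but the first exclude summits within 500 bp of a TSS. Introns hold 48.2% of clustered and 23.8% of other summits.

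Most clusters reached a TSS nonetheless. TSSs of all annotated genes were counted, those of small RNAs included. Of all IDR summits, 59.1% lay within 500 bp of one, and a cluster holds at least 5 summits. At least 1 summit was that close to a TSS in 85 of 90 clusters, and the strongest summit was in 54. The 5 clusters with none were at Kr-h1, Eip75B, skd, CG43245 and sbb. In 1 cluster, that of fs(1)h, which encodes a bromodomain protein, all summits did. Clusters with a summit that close to the TSSs of 2 or more protein-coding genes numbered 34. Another 47 had one at the TSS of 1 such gene, and 9 at none. By strength, clustered summits near a TSS had a median signal of 163, against 135 for those farther away. The same medians were 138 and 125 in the other IDR peaks.

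Host genes were long. In 64 clusters more than 50% of summits lay in the host gene, and in 37 all of them did. The 88 host genes had a median length of 18612 bp, against 2166 bp for all 13945 protein-coding genes, and a median of 2.5 start sites, against 1. Hosts were chosen as the genes whose bodies hold the most summits of a cluster, a choice that favours long genes. The comparison set is all genes, with or without an IDR summit, so these medians are a description only. Of the clustered summits inside their host, 74.5% lay in the 5′ 50% of the gene, against 75.7% of other summits inside a gene. In 6 clusters no protein-coding body held a summit. The 5 summits of the ovo cluster, for example, all lay in the noncoding gene lncRNA:CR44833.

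GA repeats were more frequent at clustered summits than between them. GAGAGAG or its complement was present within 100 bp of 229 clustered summits (39.4%, interval 35.5% to 43.4%), against 33.8% of other summits (32.3% to 35.4%) and 34.6% of the whole list. The interval of clustered summits lay just above that of the others. It covers counting error only, and neighbouring peaks are not independent, so this small gap cannot be read as a difference. It was present at 14 of 384 midpoints between neighbouring summits of a cluster more than 600 bp apart (3.65%, 2.18% to 6.03%). Summit windows were richer in G and C, with a median of 49.8% in clustered and in other summits, against 38.8% at midpoints, and the part of base composition in this contrast was not tested. When clusters were drawn anew from the strongest 2087 IDR peaks, clustered and other summits had nearly the same share, 46.2% and 45.9%. With replicate 4 alone the shares were 32.6% and 26.0%.

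By position, GAGA matches were found at 39.2% of clustered summits near a TSS, against 32.1% of other summits there, with overlapping intervals. In introns the shares were 37.5% in clusters and 40.1% elsewhere. In intergenic sequence they were 44.0% of 50 clustered summits (31.2% to 57.7%) and 27.5% of others (23% to 32.6%), again with overlapping intervals. Clustered peaks with a match had a median signal of 187, and those without had 128. The medians were 166 and 121 in other peaks.

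Of 90 clusters, 83 had a match at 1 or more summits, 63 at 2 or more and 25 at more than 50% of their summits. Beside these counts, 34.6% of all IDR summits had a match, and each cluster holds at least 5 summits. Groups of other IDR summits of the same size were not counted, so the numbers are not particular to clusters. The share per cluster averaged 38.8% ± 22.8 (SD over 90 clusters). In the cluster named for CG43245, singled out after its values were seen, all 5 summits were intergenic and all 5 had a match. The 7 clusters with none were at CG46304, eEF1gamma, jar, tou, heph, CheA75a and sbb.

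Matches of the broad κB motif were rare at clustered summits. The pattern was GGGRNNYYCC, where R is A or G, Y is C or T and N is any base. It was present at 7 of 581 (1.20%, interval 0.585% to 2.47%), against 1.25% of other summits and 1.25% of the whole list. At midpoints the share was 1.82%. Sites that depart from this pattern were not counted, so the share of all κB sites is unknown. The 7 lay in 7 different clusters. A set of 3 is printed with 10 bases on either side of the match, which is in capitals, on the plus strand of dm6, to show the kind of sequence that NF-κB factors are known to recognise. Their signals were 102 at chm, 235 at Akap200 and 87.2 at gpp.
chm, chr2L:7420310-7420339: agctggccgaGGGGGCTTCCtctcgaactg
Akap200, chr2L:8411625-8411654: tctcgcaattGGGGCTCTCCcgaagaatgc
gpp, chr3R:6406823-6406852: ccacccgttaGGGATTCTCCgtttcccttt

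Of the other motifs searched on both strands, CA repeats (CACACACA) were present at 18.4% of clustered summits (15.5% to 21.8%), against 13.8% of others (12.7% to 15%), 14.5% of the whole list and 7.03% of midpoints. In introns the shares of clustered and other summits were 20.7% and 18.3%. Near a TSS they were 14.7% and 12.4%, and in intergenic sequence 16% and 11.3%. The intervals overlapped in each of these classes. As for GAGA, the intervals cover counting error only and neighbouring peaks are not independent. The gap over all positions thus cannot be read as a difference. The E-box CAGCTG was present at 13.3% of clustered summits, 13.6% of others and 13.6% of the whole list, against 5.73% of midpoints. Of the remaining motifs, DRE (TATCGATA) was found at 0.688% of clustered summits, against 1.78% of others and 1.63% of the list. The half-site AGGTCA of nuclear receptors such as the ecdysone receptor was found at 4.65%, against 2.81% of others and 3.07% of the list. The intervals of both pairs overlapped.

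The E-box CACGTG (4.13%, against 3.37% and 3.47% of the list), the Zelda site CAGGTAG (1.38%, against 1.75% and 1.70%) and the AP-1 site TGANTCA (3.61%, against 3.56% and 3.57%) had overlapping intervals in clustered and other summits. So had Stat92E sites (TTCNNNGAA, 2.58%, against 3.59% and 3.45%) and Motif 1, a core promoter element (0.688%, against 1.11% and 1.05%). GATA sites (AGATAA) were found at 6.20% of clustered summits, 7.35% of others and 7.19% of the list, against 15.6% of midpoints. Runs of A (AAAAAAAA) were found at 7.06%, 7.43% and 7.38%, against 14.1% of midpoints. The interval at midpoints lay above that of clustered summits for both. Midpoints had a median of 38.8% G and C, against 49.8% at clustered summits. Within 500 bp of a TSS lay 23.7% of midpoints, against 37.3% of clustered summits. The part of base composition and of position in the contrasts with midpoints was not tested for any motif.

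**Figure D5:**
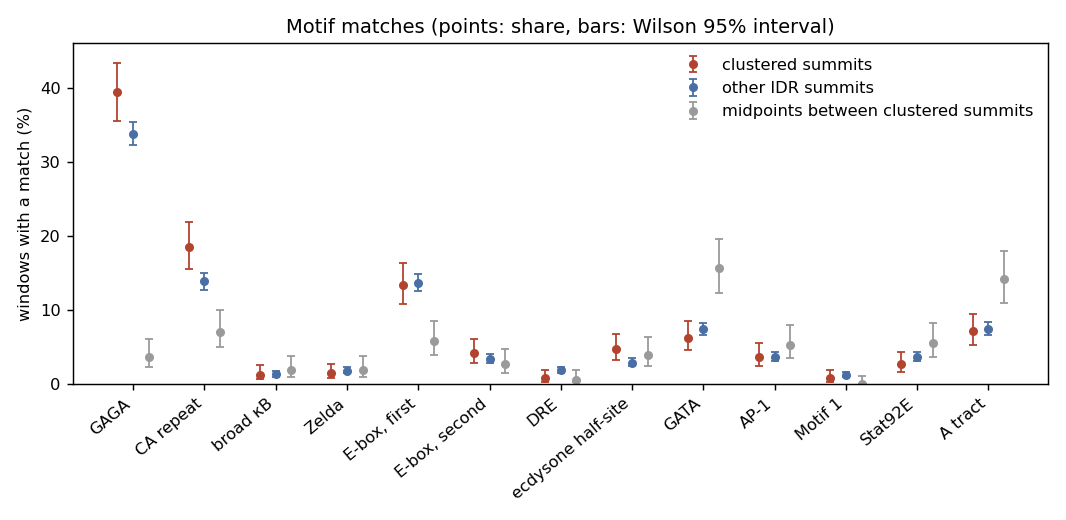
Share of windows of 201 bp (%) with each motif, at clustered summits (red), at other IDR summits (blue) and at midpoints between clustered summits (grey), with Wilson 95% intervals. The E-boxes stand in the order of the text, CAGCTG before the other. GAGA matches are at 39.4%, 33.8% and 3.65% in this order, while GATA and A-tract matches are most frequent at midpoints.

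The tagged gene lay in a cluster of its own. The Dif cluster on 2L (17428229 to 17433374) had 5 summits with signals of 386, 643, 145, 179 and 89.9 along the arm. Their ranks were 303, 120, 1469, 843 and 3328 in replicate 3 and 298, 100, 5465, 1465 and 22790 in replicate 4. The first 2 summits were strong in both replicates, and the last was far weaker in replicate 4. The strongest lay 194 bp from the TSS of lncRNA:CR44409, the first lay 30 bp from a Dif TSS, and the last, 213 bp from another Dif TSS, was also near CG5043. Peak lists cannot tell reads of the insertion from those of any native copy of Dif. The part of the insertion in these peaks was not tested. The span held 5 of the strongest summits of replicate 3 and 3 of replicate 4.

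Apart from Dif, 1 gene of the immune lists lay in a cluster. A gene was counted when a clustered summit lay in its body or within 500 bp of its TSS, which held for 138 of 13945 protein-coding genes (0.99%). Any IDR summit, counted in the same way, was found at 2479 of them (17.8%). Of 21 Toll pathway genes, 10 had some IDR summit and Dif was the single one with a clustered summit (4.76%). Of 20 Imd pathway genes, 10 had an IDR summit and 1, Rel, had a clustered one (5%). Rel encodes Relish, the NF-κB factor of the Imd pathway, and its 5′ UTR summit (signal 204, ranked 1359 in replicate 3 and 773 in replicate 4) was the first of 7 in the cluster of its neighbour Kdm2, a histone demethylase gene. Of 36 antimicrobial peptide, Bomanin and Daisho genes, which are effectors of these pathways, 0 were in a cluster and 1 had an IDR summit. These effector genes are short, with a median of 450 bp.

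Several genes of the ecdysone response and of chromatin regulation lay in clusters. Of 25 ecdysone response genes, 20 had an IDR summit, beside 17.8% of all protein-coding genes. A clustered one was found at 4, beside 0.99% of all: Eip74EF with 9, Eip75B with 6, tai with 5 and Kr-h1 with 5. Eip75B, a nuclear receptor, was the single one of 21 nuclear receptor genes. Its 6 clustered summits, all in introns, were weak, with signals from 86.7 to 172. tai, a coactivator of the ecdysone receptor, had signals up to 523. Of 20 genes of GAGA factor, Polycomb and trithorax proteins, 3 were in clusters, namely trx with 8 summits, Trl with 7 and psq with 1. Of 15 Dpp pathway genes there were 3, namely shn, a zinc-finger cofactor with 12 summits in 2 clusters, Dad with 9, and brk, a repressor of Dpp targets, with 1.

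Of 20 genes of the Myc network and growth control, REPTOR had 7 clustered summits, 5 of them in its own cluster, and Mnt had 6. Both are transcription factors that restrain growth, REPTOR when TOR is inactive and Mnt as a partner of Max. Of 17 Notch pathway genes, the coactivator mam had 7. Of 8 Hox genes, 0 were in a cluster while all 8 had an IDR summit, beside 17.8% of all protein-coding genes, and their median length was 30563 bp. Of 22 embryonic Dorsal targets, ush had 8 clustered summits and brk had 1. All 8 lay in the body of ush, but for most of them the nearest TSS was that of cbt. The summit at 479696 lay 8 bp from the cbt TSS, while the strongest lay 71 bp from a ush TSS. Among markers of tissues, ush was 1 of 17 blood cell genes, Tm1, which encodes tropomyosin, was 1 of 17 muscle genes, and nrv2 was 1 of 7 glial genes. In clusters were 0 of 16 neuronal and 0 of 15 fat body genes, beside 0.99% of all protein-coding genes. Lists this short cannot show a lack at that share. Some IDR summit was found at 5 blood cell, 5 muscle, 4 glial, 5 neuronal and 7 fat body genes. The neuronal genes had a median length of 37056 bp.

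Gene length moved with these counts. A clustered summit was found at 0.392% of genes up to 5 kb, 2.03% of those from 5 to 20 kb, 4.11% of those from 20 to 50 kb (2.88% to 5.84%) and 5.86% of longer ones. The median gene of the ecdysone list was 31127 bp long, and that of the Dpp list 7566 bp. No enrichment was tested for any list. The part of length in the counts was not tested.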

How the data were processed

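Peak lists of ChIP-seq for GFP-tagged Dif in 2 biological replicates were used as deposited. Per the deposited listings, relaxed lists of 30000 peaks and background regions were called by the authors for each replicate and for both pooled against a control, and the IDR list was derived from these. For the aligner, the caller and the scaling of the signal, nothing is given in the sources used here. Each peak has the authors' signal and a deposited −log10 q value, which no printed result uses. Signal was compared within a list, and between replicates by correlation of matched peaks. All 4175 dm6 IDR peaks were in the pooled list.

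Summits were chained at 5000 bp, and positions are 1-based dm6. Genes and TSSs (of all annotated genes) came from Ensembl release 115 and sequence from RefSeq Release 6, where 99.8% of 30593 annotated start codons read ATG. Motifs were searched on both strands within 100 bp of summits. Motif 1 and the broad κB motif are degenerate patterns, and no motif contains another. Of 16 gene lists, 1 symbol did not match a gene and was left out. Shares carry Wilson 95% intervals that cover counting error only. Python 3.11.15, NumPy 2.4.6 and SciPy 1.17.1 were used, and chaining and motif search were tested on simulated data. No p-value was computed, since 1 group was measured and members were chosen from its peaks.

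Clusters were named by rule: the 15 with the most summits, the 5 of highest mean signal, 3 of closest spacing and 3 of longest span, the 10 strongest peaks, and list genes with a clustered summit. Clusters named in counts of 12 or fewer were added after their values were seen. Members and lists were chosen with earlier results of these data known. Alternatives changed the chaining distance, the minimum of summits, the peak threshold, the replicate, the build and the windows. The sequences of the other κB matches are not reported here.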

Additional observations from a re-analysis of the deposited data

How the results depend on the processing

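The number of clusters and of clustered peaks follows the rule. They were 54 and 304 with chaining at 2500 bp, 159 and 1103 at 10000 bp, 182 and 949 with 4 or more summits, 19 and 185 with 8 or more, and 20 and 119 in the strongest 2087 peaks. With 1 replicate alone they were 88 to 93 clusters and 567 to 599 peaks, and the dm3 list gave 92 and 597. The median signal ratio of clustered to other peaks was 1.11 with 4 or more and with 8 or more summits, 1.12 in the strongest 2087, and 1.15 to 1.18 with 1 replicate alone.

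The share found in both replicates was 89.9% in the strongest 2087, 75.6% to 76.2% with 1 replicate alone, 62.0% at 50 bp and 96.0% at 250 bp. The share within 500 bp of a TSS was 45.3% with 10000 bp, 43.3% with 4 or more summits, 29.7% with 8 or more, 29.4% in the strongest 2087 and 35.4% to 42.5% with 1 replicate. It was 26.7% for a window of 200 bp and 52.0% for 1000 bp. In each case other peaks had a higher share, from 50.2% to 74.8%. The share in introns was 52.6% with 2500 bp, 40.6% with 10000 bp, 41.8% with 4 or more summits and 43.7% to 45.4% with 1 replicate. With TSS windows of 200 and 1000 bp it was 53.2% and 38.9%. Other peaks lay between 16.6% and 29.3%, below the clustered share under every alternative run. The GAGA share was 46.2% in the strongest 2087, where other peaks had 45.9%, and 32.6% to 40.6% with 1 replicate. It was 33.7% within 50 bp and 47.3% within 250 bp. The cause of these shifts was not tested. No paired analysis was possible because the labels give 1 group. Library depth is unknown, so a peak missing from a replicate may lie under its detection limit.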
